A study of Homo sapiens with 8 samples.

Results

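Peaks of mTOR on chromatin were compared between androgen and vehicle in LNCaP cells that carried the empty hairpin vector (shEV). Of the 26074 peaks called after the androgen R1881, 11739 had no overlapping peak in the vehicle (EtOH) library and are called gained. Of the 24948 peaks called in the vehicle library, 10626 had no counterpart after R1881 and are called lost. The remaining 14335 peaks of the R1881 list and 14322 of the EtOH list overlapped by at least 1 bp and are called shared. Together the 2 lists hold 51022 of the 125713 peaks in the 4 mTOR libraries of the series, all counted on chromosomes 1 to 22, X and Y. LNCaP is an established prostate cancer line that depends on androgen. Both groups were kept without androgen for 48 h in RPMI with 2% charcoal-stripped serum and were then treated for 24 h, either with ethanol at 0.1% or with 10 nM R1881, a synthetic androgen that is metabolised slowly. The other pair of mTOR libraries came from cells with a hairpin against FoxA1 (shFoxA1) under the same 2 treatments. That pair serves here only as a second place to look for the same peaks, and it is not a replicate, because the hairpin differs. Each group is 1 library from 1 line, so the comparison has no replicates and no p-value is given. Intervals in parentheses after a share are Wilson 95% intervals and cover counting error only.

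mTOR is the serine/threonine kinase of mTOR complex 1 and mTOR complex 2, which couple nutrients and growth factors to protein synthesis, lipid synthesis and autophagy. Most of its known work is done at lysosomes and in the cytoplasm, but a nuclear pool has been found on chromatin, also in prostate cancer cells. Androgen acts on chromatin mostly at enhancers in introns and between genes, where the pioneer factor FoxA1 commonly opens chromatin for other factors. An immunoprecipitated peak shows where the antibody recovered cross-linked DNA. It does not show whether mTOR touches DNA itself, nor what the nearby gene does.

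The promoters in which peaks appeared or disappeared are illustrated by 4 sequences, chosen after their values were seen because each holds at least 1 of the motifs searched and lies under a gained or lost promoter peak. TXNIP encodes thioredoxin-interacting protein, a restraint on glucose uptake, and UGT2B15 encodes an enzyme that glucuronidates androgens. Both promoters had a gained peak. ATF4 encodes the transcription factor of the amino acid and stress response, and GRPEL2 encodes a mitochondrial cochaperone. Both had a lost peak. All 4 of these promoter peaks were also present in both FoxA1-hairpin lists, after R1881 and after EtOH. The sequences are the 250 bases before the RefSeq start of each gene (build GRCh38.p14), written 5′ to 3′ on the strand of the gene. They lie at chr1:145996580-145996829 (minus strand) for TXNIP, chr4:68670653-68670902 (minus) for UGT2B15, chr22:39520309-39520558 (plus) for ATF4 and chr5:149345249-149345498 (plus) for GRPEL2. Capitals mark matches, on either strand, to the hexamer AGAACA of the androgen response element, the forkhead motif TGTTTAC, the E-box CACGTG or the ETS motif CCGGAAGT. A forkhead match on the opposite strand is written as GTAAACA.
TXNIP: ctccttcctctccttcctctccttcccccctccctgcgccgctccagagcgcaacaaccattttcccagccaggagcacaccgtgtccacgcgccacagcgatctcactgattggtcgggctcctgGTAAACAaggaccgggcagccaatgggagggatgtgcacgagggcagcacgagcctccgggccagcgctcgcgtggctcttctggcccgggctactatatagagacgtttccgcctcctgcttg
UGT2B15: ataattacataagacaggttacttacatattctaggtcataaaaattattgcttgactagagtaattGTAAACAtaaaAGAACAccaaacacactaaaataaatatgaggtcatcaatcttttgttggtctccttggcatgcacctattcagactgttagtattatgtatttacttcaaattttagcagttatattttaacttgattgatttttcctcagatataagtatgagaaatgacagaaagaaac
ATF4: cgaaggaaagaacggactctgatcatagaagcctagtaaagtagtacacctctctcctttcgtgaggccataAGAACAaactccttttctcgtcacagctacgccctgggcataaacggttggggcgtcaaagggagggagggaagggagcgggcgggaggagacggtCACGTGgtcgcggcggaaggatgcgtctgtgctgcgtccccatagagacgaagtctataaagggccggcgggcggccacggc
GRPEL2: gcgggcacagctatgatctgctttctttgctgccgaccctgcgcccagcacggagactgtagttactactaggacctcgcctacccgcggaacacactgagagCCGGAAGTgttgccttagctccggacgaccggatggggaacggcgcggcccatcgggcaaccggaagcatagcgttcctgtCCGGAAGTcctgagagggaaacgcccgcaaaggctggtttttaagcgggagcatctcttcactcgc
The TXNIP window holds a forkhead match that begins 124 bases before the start. The UGT2B15 window holds a forkhead match at 183 bases and an AGAACA hexamer at 172 bases before the start, and only 28.4% of its bases are G or C, against 63.6% in TXNIP. The ATF4 window has the hexamer 178 bases and an E-box 82 bases before the start, and GRPEL2 has ETS matches at 147 and 66 bases. A match is a run of letters and not a measured binding site.

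The gained peaks were 45.0% of the R1881 list (44.4 to 45.6) and the lost peaks 42.6% of the EtOH list (42.0 to 43.2). Both directions were therefore near balance, with 52.5% of all changed peaks gained (51.8 to 53.1). Gained and lost peaks were narrower than shared ones: their median widths were 389 and 387 bp, against 510 bp for the shared peaks of the R1881 list and 529 bp for those of the EtOH list. Gained peaks covered 5.19 Mb and lost peaks 4.69 Mb, against 9.34 Mb for shared peaks on the R1881 side. Few calls sat at the edge of the 1 bp rule. In the R1881 list 131 shared peaks overlapped by 100 bp or less, with a median peak score of 34, and 96 gained peaks ended less than 100 bp from an EtOH peak, with the same median score of 34. In the EtOH list these were 134 shared and 97 lost peaks. In 97.0% of the shared peaks of either list the overlap covered at least 50% of the shorter peak. Gained and lost peaks also rarely lay side by side, since 439 gained peaks, or 3.74%, had a lost peak within 1 kb. The median gap from a gained peak to the nearest shared peak was 52097 bp, and that from a lost peak was 52417.5 bp.

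Peaks gained with R1881 lay in introns more often, and in promoters less often, than the peaks that were lost. Introns held 42.5% of the gained peaks (41.6 to 43.4), 38.5% of the lost peaks (37.6 to 39.5) and 33.3% of the shared peaks (32.5 to 34.1). Promoters held 7.53% of the gained (7.07 to 8.02), 9.69% of the lost (9.15 to 10.3) and 10.0% of the shared peaks (9.54 to 10.5). Sequence between genes held 45.7% of the gained, 47.4% of the lost and 50.8% of the shared peaks; with repeats left out of both lists the gained share was the higher, by 4.10 percentage points. Exons held 1.42%, 1.76% and 3.09%. Gained peaks fell outside annotated repeats in 35.6% of cases, lost peaks in 31.8% and shared peaks in 27.9%. The classes are those the authors deposited, and no genome-wide class shares were set beside them, so they describe the 3 sets and no preference of mTOR.

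**Figure D1:**
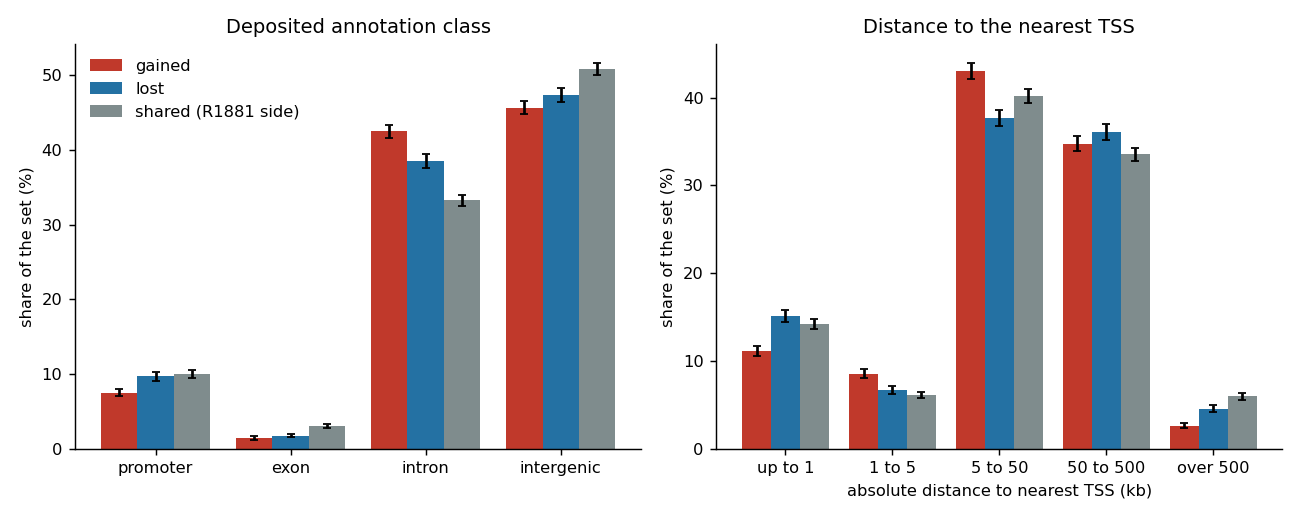
Share of the gained (red), lost (blue) and shared peaks on the R1881 side (grey) in each deposited annotation class (left) and in bins of absolute distance to the nearest transcription start site in kb (right); bars are percent of the set and whiskers Wilson 95% intervals. The gained bar is the tallest for introns at 42.5% and for 5 to 50 kb at 43.0%, and the lowest for promoters at 7.53% and for distances up to 1 kb at 11.1%.

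The distances to the nearest transcription start site (TSS) showed the same difference in finer steps. Within 1 kb of a TSS lay 11.1% of the gained peaks (10.6 to 11.7), 15.1% of the lost (14.4 to 15.8) and 14.3% of the shared (13.7 to 14.8). Between 1 and 5 kb the order turned, with 8.57% of the gained, 6.68% of the lost and 6.12% of the shared peaks. Between 5 and 50 kb lay 43.0%, 37.6% and 40.1%. Beyond 500 kb lay 2.61% of the gained peaks against 4.54% of the lost and 5.97% of the shared. The medians over all peaks hid most of this, at 30363 bp for gained, 33146.5 bp for lost and 31231 bp for shared peaks. Outside repeats the sets stood farther apart. The median distance was 11684 bp for gained, 2090.5 bp for lost and 1099 bp for shared peaks, and the median GC content 48.4%, 56.7% and 56.4%. No promoter peak was annotated to a repeat, so all of them count as outside repeats. These medians therefore partly restate the promoter shares. Promoter peaks made up 1030 of the 3384 non-repeat lost peaks and 1437 of the 4003 shared ones, against 884 of the 4177 gained.

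The balance of gained and lost peaks differed between kinds of sequence. Over all peaks 52.5% of the changes were gains. Introns outside repeats had 1617 gained and 1073 lost peaks, a gained share of 60.1% (58.2 to 61.9), and non-repeat sequence between genes had 1174 and 812, or 59.1% (56.9 to 61.3). Promoters, where no peak was annotated to a repeat, had 884 gained and 1030 lost peaks, or 46.2% (44.0 to 48.4). Among repeats, the old L2 elements, a family of long retrotransposons that no longer move, had 328 gained and 163 lost peaks, or 66.8% (62.5 to 70.8). DNA transposons had 268 and 140 (65.7%, 61.0 to 70.1) and the ERVL retroviruses 132 and 77 (63.2%, 56.4 to 69.4). Among the DNA transposons Tigger1 went the other way, with 47 gained and 67 lost peaks (41.2%, 32.6 to 50.4). Alu elements, the most numerous short retrotransposons of the human genome, had 815 and 609 (57.2%, 54.6 to 59.8).

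Other repeats leaned towards loss. ERV1 retroviruses had 408 gained and 572 lost peaks, a gained share of 41.6% (38.6 to 44.7). The hominoid-specific SVA elements had 125 and 199 (38.6%, 33.4 to 44.0). Alpha satellite, the tandem repeat of centromeres, had 168 and 279 (37.6%, 33.2 to 42.2) beside 640 shared peaks. Among single repeats with at least 60 gained and lost peaks together, the lowest gained share was that of MER52A, a long terminal repeat of the ERV1 group, with 9 gained and 65 lost peaks (12.2%, 6.53 to 21.5). The L1 subfamily L1PB1 had 50 gained and 126 lost peaks (28.4%, 22.3 to 35.5). ERVK elements changed little in either direction for their number, with 221 gained and 197 lost peaks beside 897 shared ones. How well reads map to near-identical repeats was not assessed.

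The same sequence groups were counted in the FoxA1-hairpin pair, which shares no library with the empty-vector pair and in which 57.2% of the changed peaks were gained. L2 elements stood at 71.9% there (68.4 to 75.1), DNA transposons at 64.8% (60.6 to 68.9) and non-repeat introns at 61.3% (59.9 to 62.7). MER52A had 19 gained and 71 lost peaks, or 21.1%, and L1PB1 51 and 138. SVA stood at 42.1%, alpha satellite at 44.0%, ERV1 at 49.0% and promoters at 49.2%, each below the share over all peaks as with the empty vector. Young L1 elements, the retrotransposons from L1PA8 to L1HS, were on different sides of that share, with 49.2% gained in the empty-vector pair (47.7 to 50.8) and 59.9% in the FoxA1-hairpin pair (58.6 to 61.2). The difference between the pairs was not tested.

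**Figure D2:**
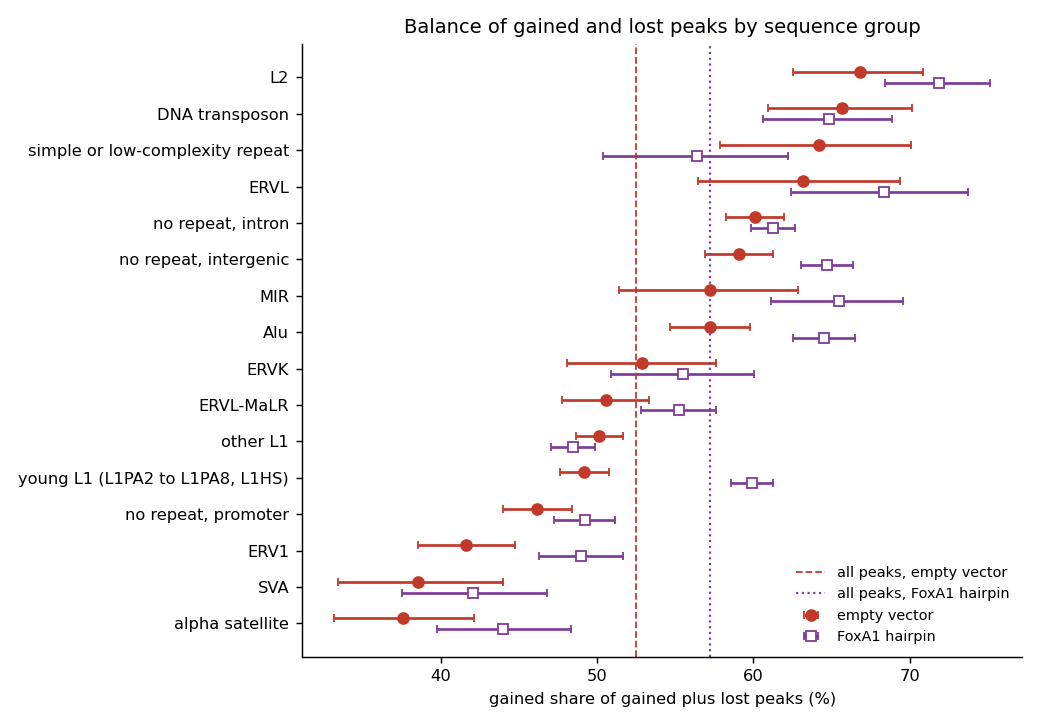
Gained share of gained plus lost peaks (percent, horizontal axis) for 16 kinds of sequence, in the empty-vector pair (filled red circles) and the FoxA1-hairpin pair (open purple squares), with Wilson 95% intervals; the vertical lines mark the share over all peaks of each pair. L2, DNA transposons, simple repeats and ERVL lie highest among the red circles, from 66.8% to 63.2%, and ERV1, SVA and alpha satellite lie lowest, from 41.6% to 37.6%.

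Most gained and lost peaks had low scores. The score is the authors' value for each peak and is used only to rank peaks within a list. When each list was divided into steps of 20% by score, the gained share of the R1881 peaks went from 72.3% in the lowest step to 10.4% in the highest. The lost share of the EtOH peaks went from 75.03% to 4.45%. In the highest step 542 peaks were gained and 222 lost. The strong peaks of the 2 directions also differed in what they held. Repeats covered 62.9% of the 542 strong gained peaks and 85.1% of the 222 strong lost ones, and the median distance to a TSS was 33284.5 bp against 66642.5 bp. Above the median score of their lists, non-repeat peaks made up 31.3% of the gained (29.8 to 32.9) and 20.2% of the lost peaks (18.7 to 21.8).

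Strong gained peaks recurred in the R1881 library of the FoxA1-hairpin cells. Of the 542 gained peaks in the highest step, 88.2% overlapped a peak of the shFoxA1 R1881 list and 27.3% one of the shFoxA1 EtOH list. Of the 222 strong lost peaks, 65.8% overlapped a peak of the shFoxA1 R1881 list and 84.2% one of the EtOH list. In the lowest step these shares were 36.99% and 28.4% for gained and 31.8% and 36.9% for lost peaks. The shFoxA1 R1881 list is the longer of the 2, with 39570 peaks against 35121, and a longer list overlaps more of any set. Of all gained peaks 28.5% were present only in the shFoxA1 R1881 list and 10.1% only in its EtOH list. A further 23.7% were in both lists and 37.6% in neither. Of all lost peaks 12.9% and 19.5% were in 1 list only, 30.0% in both and 37.6% in neither. Shared peaks of the R1881 list overlapped the 2 FoxA1-hairpin lists in 88.4% and 88.6% of cases. Gained promoter peaks followed treatment less closely than other gained peaks: 69.8% (66.7 to 72.7) overlapped a peak of shFoxA1 R1881 and 65.5% (62.3 to 68.6) one of shFoxA1 EtOH, against 51.4% and 29.9% for gained intron peaks.

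**Figure D3:**
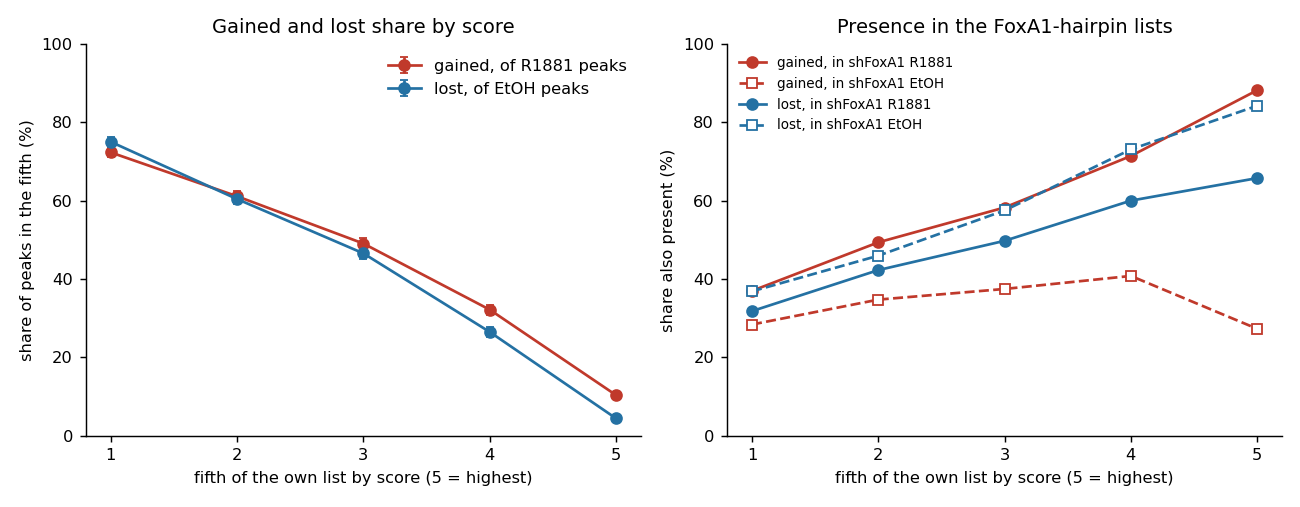
Left, the gained share of R1881 peaks (red) and the lost share of EtOH peaks (blue) in steps of 20% of each list by score, from the lowest (1) to the highest (5), with Wilson 95% intervals; right, the share of these gained and lost peaks that overlap a peak of the shFoxA1 R1881 (filled, solid) or shFoxA1 EtOH list (open, dashed). At the right edge 88.2% of the gained peaks are present in shFoxA1 R1881 and 27.3% in shFoxA1 EtOH.

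Peaks were next assigned to the nearest gene when they lay within 50 kb of its TSS. At least 1 gained peak lay at 4234 of the 20037 protein-coding genes, or 21.1%, and at least 1 lost peak at 3848, or 19.2%. Peaks of both kinds lay at 1307 genes. A peak was present only with R1881 at 1997 genes (9.97%) and only with EtOH at 1808 (9.02%). Over all coding genes 5512 assigned peaks were gained and 4761 lost, so 53.7% of the changes at genes were gains (52.7 to 54.6), and the median gene had gained minus lost at 0. The 12 gene lists below are read against these values. A peak at a gene is only its neighbour, and nothing here measures expression, so the identity of the cells was also not checked against markers.

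Known androgen-induced genes had the most gained peaks of the lists. A gained peak lay at 28 of the 37 genes, or 75.7%, and a lost peak at 15, or 40.5%, both above the shares over all coding genes. In all 48 peaks were gained and 19 lost, a gained share of 71.6% (59.9 to 81.0), and the median gene had gained minus lost at 1. Of the 48 gained peaks 24 were intronic, 6 lay in promoters and 16 between genes, and 30 were outside repeats. In the FoxA1-hairpin libraries 31 of the 48 had a peak after R1881 and 10 after EtOH, 26 of them only after R1881. Of the 19 lost peaks 13 and 14 did. The same list had 66 gained and 25 lost peaks in the FoxA1-hairpin pair. Gained minus lost was 29, and 12 when each list was limited to its 10000 strongest peaks or the window to 10 kb.

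Among the secreted proteases, KLK3, which encodes prostate-specific antigen, had a gained peak 4031 bp upstream of its TSS (chromosome 19, 50850680 to 50851089, score 135). It lies in an LTR40a element inside an intron of an overlapping non-coding transcript, and both FoxA1-hairpin lists held it. A second KLK3 peak, about 10.4 kb upstream in an L1PBa element, was shared. KLK2 had no peak within 50 kb in either list, and KLK4 had 1 gained intronic peak with a score of 20 beside 1 shared peak. TMPRSS2, the membrane serine protease gene whose promoter is fused to ERG in many prostate cancers, had 2 gained peaks and no other. The first lay in its promoter at -877 bp (chromosome 21, 41508731 to 41509340, score 27) and the second at -12532 bp (41520512 to 41520869, score 50), and neither was present in a FoxA1-hairpin list.

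FKBP5, an androgen-responsive gene that encodes a cochaperone, had 3 gained peaks and 1 lost peak and no shared peak. The strongest, already the highest-scoring of the list, lay 5945 bp into the gene in an L2c element with a score of 339. Another lay 656 bp from the TSS (chromosome 6, 35727579 to 35728276, score 67) and the last at -3478 bp (35731704 to 35732419, score 135). All 3 were present in shFoxA1 R1881 and absent from shFoxA1 EtOH. The lost peak lay in intron 2, 527 bp from another annotated start (35687906 to 35688871, score 105), and showed the reverse pattern, since shFoxA1 EtOH held it and shFoxA1 R1881 did not.

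Some transcription regulators of the list also had gained peaks. ZBTB16, a zinc-finger repressor gene, had 3 gained peaks with scores of 27, 85 and 95, all present in shFoxA1 R1881 only, and lost its promoter peak at -256 bp (score 42). EAF2, which encodes a partner of elongation factors, had 1 gained peak in an AluSg element. SPDEF had 1 gained and 2 shared peaks, ELL2 1 shared peak, and MAF 1 lost peak.

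Among membrane proteins and transporters, TPD52 had 4 gained and 3 lost peaks. The gained ones were intronic, with scores of 104, 20, 104 and 34, and were present in shFoxA1 R1881 only. The lost ones included the promoter peak at 86 bp (score 58). PMEPA1, which encodes a membrane protein that dampens TGF-beta signalling, had 3 gained peaks (scores 34 to 42) and no lost peak. The cation channel gene TRPM8 had 1 gained intronic peak at 36185 bp (score 85), STEAP4 2 gained peaks, 1 of them in its promoter (score 20), and STEAP1 1 gained and 1 lost peak. SLC45A3 had its only peak in the R1881 list. Among metabolic genes, CAMKK2, the kinase upstream of AMPK, had a gained promoter peak at -172 bp (score 27) and a gained peak at -3785 bp (score 34), and GNMT had a gained promoter peak at -588 bp (score 67). Members that went the other way were IGF1R, the insulin-like growth factor receptor gene, with 2 lost peaks around its start (34 and 27) and no gained peak, and STEAP2 and MAF with 1 lost peak each.

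The 10 androgen-repressed genes had 6 gained and 8 lost peaks. A gained peak lay at 2 of them (20%) and a lost peak at 5 (50%), beside 21.1% and 19.2% of all coding genes. All but 1 of the 6 gained peaks came from UGT2B28, whose 5 gained peaks, with scores of 27 to 125, spanned chromosome 4 from 69287176 to 69311164, and 4 of the 5 were outside introns. The UGT2B genes are close paralogs in 1 cluster, so reads and peaks there may be placed at the wrong copy. UGT2B15 had the gained promoter peak over the sequence shown above (chromosome 4, 68670619 to 68670938, score 58), 2 lost peaks (203 and 42) and 2 shared peaks. Both FoxA1-hairpin lists held that gained peak. UGT2B17, UGT2B7 and UGT2B11 each had 1 shared peak and no other. OPRK1, the kappa opioid receptor gene, had 3 lost peaks (58, 42 and 20) and none gained. DDC, a dopamine synthesis gene, and CCN3 had 1 lost peak each, and CAMK2N1 had no peak. In the FoxA1-hairpin pair the list had 7 gained and 14 lost peaks. The balance is not stable, since gained minus lost was -2 here and 3 among the 10000 strongest peaks of each list.

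Luminal transcription factors, the regulators of secretory prostate cells, had 23 gained and 11 lost peaks. A gained peak lay at 12 of 20 genes (60%) and a lost peak at 7 (35%), beside 21.1% and 19.2% of all coding genes. Only 2 of the 23 gained peaks scored above the median of their list, against 4 of the 11 lost ones. EHF, an epithelial ETS factor gene, had 4 gained peaks and no other, at -330 bp in the promoter (score 58), 7632 bp (76), 35585 bp (42) and 38749 bp (50). All 4 were present in shFoxA1 R1881 and 3 also in shFoxA1 EtOH. GATA2, which encodes a zinc-finger factor, had 3 gained peaks (scores 20 to 50) and none lost. FOXA1 had 2 gained (42 and 20) and 2 lost peaks (85 and 50). HOXB13, the posterior prostate homeobox gene, likewise had 2 gained peaks (20 and 42) and 2 lost ones, among them its promoter peak at -374 bp (67). FOXA2 had 2 lost peaks near its start and none gained. The FoxA1-hairpin pair had 34 gained and 11 lost peaks at the list.

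Coregulators of nuclear receptors had 12 gained and 15 lost peaks, each at 9 of the 20 genes (45%). Over all coding genes the shares were 21.1% with a gained and 19.2% with a lost peak. NCOA4, known as the cargo receptor that delivers ferritin to autophagy, had a gained promoter peak at -59 bp (score 50) and a gained peak in an L1MB4 element (104). The acetyltransferase gene CREBBP had 2 lost peaks (115 and 27) and none gained, and the helicase gene DDX5 lost its promoter peak (76). NCOA1 had a gained peak with a score of 135 and 2 lost peaks, among them its promoter peak (85). In the FoxA1-hairpin pair 16 were gained and 17 lost.

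At genes of fatty acid and sterol synthesis, 24 peaks were gained and 12 lost, at 13 and 10 of 30 genes. These are 43.3% and 33.3% of the genes, against 21.1% and 19.2% of all coding genes. Introns held 19 of the 24 gained peaks, and these need not be introns of the listed genes. The 3 gained FASN peaks, classed as intronic, lay upstream of the TSS. Of the 24 gained peaks of the list, 14 were present in shFoxA1 R1881 and 6 in shFoxA1 EtOH. None of the 12 lost peaks was present in exactly 1 of the FoxA1-hairpin lists: 8 were in both and 4 in neither. ACACA, which encodes the acetyl-CoA carboxylase that makes malonyl-CoA, had 5 gained peaks with scores of 14 to 50 and none lost, 4 of them annotated to repeats and 2 present in shFoxA1 R1881. FASN, the fatty acid synthase gene, had 3 gained peaks (27, 76 and 50) and 1 lost (58). SCAP, the escort of the sterol-sensing SREBP factors, had 3 gained intronic peaks (20, 20 and 58). SREBF1, which encodes one of those factors, had a gained promoter peak at -340 bp (34) and 2 lost peaks (42 and 27). HMGCS1, an early sterol enzyme gene, had 2 gained peaks in repeats (146 and 50). Gained minus lost was 12, and 3 with peaks in repeats left out or 2 among the 10000 strongest peaks. The FoxA1-hairpin pair had 24 gained and 10 lost peaks.

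The mTOR pathway list, which holds the kinase's own regulators and targets, had 12 gained and 18 lost peaks. A gained peak lay at 11 of 42 genes, or 26.2%, and a lost peak at 15, or 35.7%. Over all coding genes these shares were 21.1% and 19.2%. Among subunits of the complexes, MTOR had a single peak, gained, in an L2a element of intron 4 of 57 (chromosome 1, 11256204 to 11256704, score 379), present in shFoxA1 R1881 only. PRR5 of mTOR complex 2 had 1 gained peak at -2288 bp (191, in both FoxA1-hairpin lists). RICTOR, AKT1S1 and MAPKAP1 had 1 lost peak each (50, 42 and 42), and RPTOR had 1 gained and 1 lost (34 each). Among upstream sensors, SLC38A9, the lysosomal arginine sensor, had 2 lost peaks (136 and 20) and 1 gained (27). Peaks were lost and none gained at SESN2, a leucine sensor (67, at 202 bp), PRKAA1, an AMPK subunit (27 and 42), RHEB (34), RRAGA (42) and RRAGC (20). SESN1 had 2 gained peaks (34, and 42 in a promoter at 90 bp) and 1 lost peak (50). CASTOR1, the cytosolic arginine sensor, had 1 gained peak (50). Among targets, the cap-binding factor gene EIF4E had 1 gained peak in an AluSc element (114), ULK1, the autophagy kinase gene, had 1 gained peak (58), and EIF4EBP1, the inhibitor of EIF4E, had 2 lost peaks (34 and 76). In the FoxA1-hairpin pair the list had 27 gained and 26 lost peaks, and among the 10000 strongest peaks of each empty-vector list gained minus lost was 1 in place of -6.

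Glycolysis had 16 gained and 11 lost peaks, each at 9 of 26 genes (34.6%), against 21.1% and 19.2% of all coding genes. The glucose transporter gene SLC2A1 had 2 gained peaks (20 and 135) and the hexokinase gene HK2 2 gained (104 and 14), while HK1 had 3 lost peaks (20, 20 and 27), 1 of them in its promoter. PFKFB3, which makes the activator of phosphofructokinase, had 3 gained peaks (27, 42 and 85). Of the 11 lost glycolysis peaks 6 recurred in shFoxA1 R1881 and 10 in the matching EtOH list. Gained minus lost was 5 for glycolysis and turned to -2 with repeats left out, and the FoxA1-hairpin pair had 12 gained and 12 lost peaks. Polyamine and secretory genes were near balance, with 7 gained and 6 lost peaks. A gained peak lay at 5 of the 18 genes and a lost peak at 5 (27.8% each), against the same 21.1% and 19.2%.

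Cell cycle genes had 14 gained and 2 lost peaks at 10 and 2 of 40 genes. The share of genes with a gained peak, 25%, was close to the 21.1% of all coding genes, and the share with a lost peak, 5%, was below the 19.2%. CDK1, the mitotic kinase gene, had 3 gained peaks: 1 over its promoter at 64 bp (34), 1 in an L2a element at 3351 bp (58) and 1 at 38951 bp (50). CCND1, the cyclin D1 gene, had gained peaks at 1412 bp (34) and at 13426 bp by its 3′ end (67). The replication helicase genes MCM7 and MCM5 had gained peaks at 105 bp (95) and -351 bp (42), and CDKN2A, the p16 and p14ARF locus, had 2 gained promoter peaks (20 and 42). The lost peaks lay at MKI67 (50) and CDKN1A (14), and CDKN1A also had a gained one (34). When each list was limited to its 10000 strongest peaks, gained minus lost was 1 in place of 12. In the FoxA1-hairpin pair the list had 13 gained and 9 lost peaks.

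Among basal and mesenchymal markers 9 peaks were gained and 0 lost, at 6 and 0 of 20 genes. These are 30% and 0% of the genes, against 21.1% and 19.2% of all coding genes. In the FoxA1-hairpin pair the list had 4 gained and 3 lost peaks, so the absence of lost peaks was not repeated there. TP63, the basal cell transcription factor gene, had 4 gained peaks, all in repeats (scores 20 to 76), 1 of them present in shFoxA1 R1881. SNAI2, SNAI1 and ZEB1, genes of repressors of epithelial identity, had 1 gained promoter peak each (50, 14 and 14), and CDH2 and COL1A1 1 gained intronic peak each (58 and 50). In the lists of 10000 strongest peaks gained minus lost was 0 in place of 9. Neuroendocrine markers had 3 gained and 4 lost peaks, each at 3 of 18 genes (16.7%), below the shares over all coding genes. Genes of unrelated tissues, which LNCaP cells should not use, had 6 gained and 5 lost peaks. A gained peak lay at 6 of the 30 genes (20%), close to the share over all coding genes, and a lost peak at 3 (10%), below it.

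**Figure D4:**
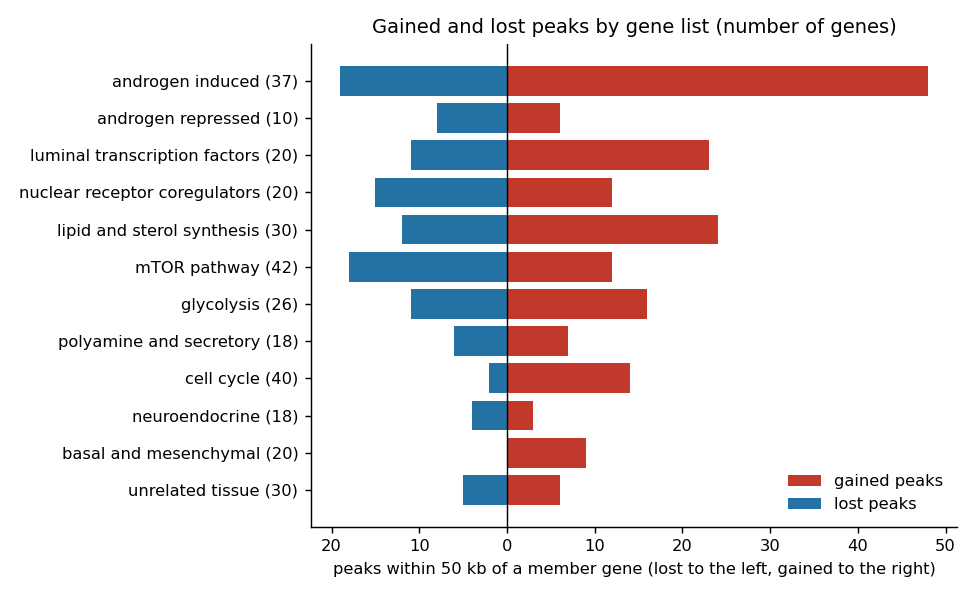
Number of gained peaks (red, to the right) and lost peaks (blue, to the left) assigned within 50 kb to the members of each of the 12 gene lists, with the number of member genes in parentheses. The androgen-induced bars reach 48 gained and 19 lost, and those of the cell cycle 14 and 2.

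Some genes collected several peaks in 1 direction. At least 3 gained and no lost peak lay at 106 genes (0.53% of all coding genes), and at least 3 lost and no gained peak at 49 (0.24%). NFKBIA, which encodes the NF-kappa-B inhibitor I-kappa-B-alpha, had 6 gained peaks, none lost and none shared, over chromosome 14 from 35370914 to 35424477 (scores 42 to 125). All 6 were present in shFoxA1 R1881 and 0 in shFoxA1 EtOH, and 3 were outside repeats. The gene is short, at 3237 bp, so 5 of the 6 peaks lay between genes. Other genes with many gained peaks were mostly long, although only peaks within 50 kb of a TSS were counted. PDE4D, a cyclic AMP phosphodiesterase gene of 1553091 bp, had 7 gained and 1 lost, and LIMCH1 had 7 and 2. CUX2, a homeobox gene, had 6 and 1, and the fragile-site gene FHIT had 6 and 0. NKX6-2 had 6 and 1. Of the 6 FHIT peaks 2 were present in shFoxA1 R1881 and 0 in shFoxA1 EtOH. GNAL, a G protein subunit gene, had 5 gained peaks with scores up to 352 and 1 lost peak. KANSL1 had 8 gained and 7 lost peaks and PPFIA2 had 7 of each, so that both appear among the genes with the most peaks in either direction. KANSL1 lies in a region with segmental duplications, where placement of reads is uncertain.

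Among genes with many lost peaks, PRKD1, a protein kinase D gene, had 9 lost and 3 gained. SEPTIN9, a cytoskeletal GTPase gene, had 7 lost peaks (scores 14 to 58) and no peak after R1881, with 3 of the 7 present in shFoxA1 R1881 and 2 in shFoxA1 EtOH. MAGI3, a junction scaffold gene, had 6 lost (20 to 147), none gained and 2 shared peaks, and ZSWIM5 had 5 lost and none gained. PDE4B, a relative of PDE4D, had 6 lost and 3 gained peaks, NDUFAF6 5 and 1, and JDP2, a repressor of the AP-1 family, 5 and 2. The next genes were chosen after their values were seen, and no theme among them was tested. MPC2, which encodes a subunit of the mitochondrial pyruvate carrier, had 5 gained and 0 lost peaks (20 to 95). Of these 5, 0 were present in shFoxA1 R1881 and 2 in shFoxA1 EtOH. The amino acid transporter gene SLC38A2 had 5 gained and 0 lost peaks (20 to 104), and the EGF receptor inhibitor gene ERRFI1 had 4 and 0 (42 to 157). In shFoxA1 R1881 3 peaks of each gene were present, and in shFoxA1 EtOH 1 and 0. LIFR, a cytokine receptor gene, had 4 gained peaks, all intronic and all in repeats, with 3 present in shFoxA1 R1881 and 1 in shFoxA1 EtOH. On the lost side KLF15 had 3 lost peaks (42 to 85) and none gained. Metabolic genes were on that side too: PHGDH, the first enzyme gene of serine synthesis, AGPAT2 and LPIN2 of glycerolipid synthesis, and SLC25A26 of the mitochondrial carrier family had 3 lost peaks each and none gained.

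**Figure D5:**
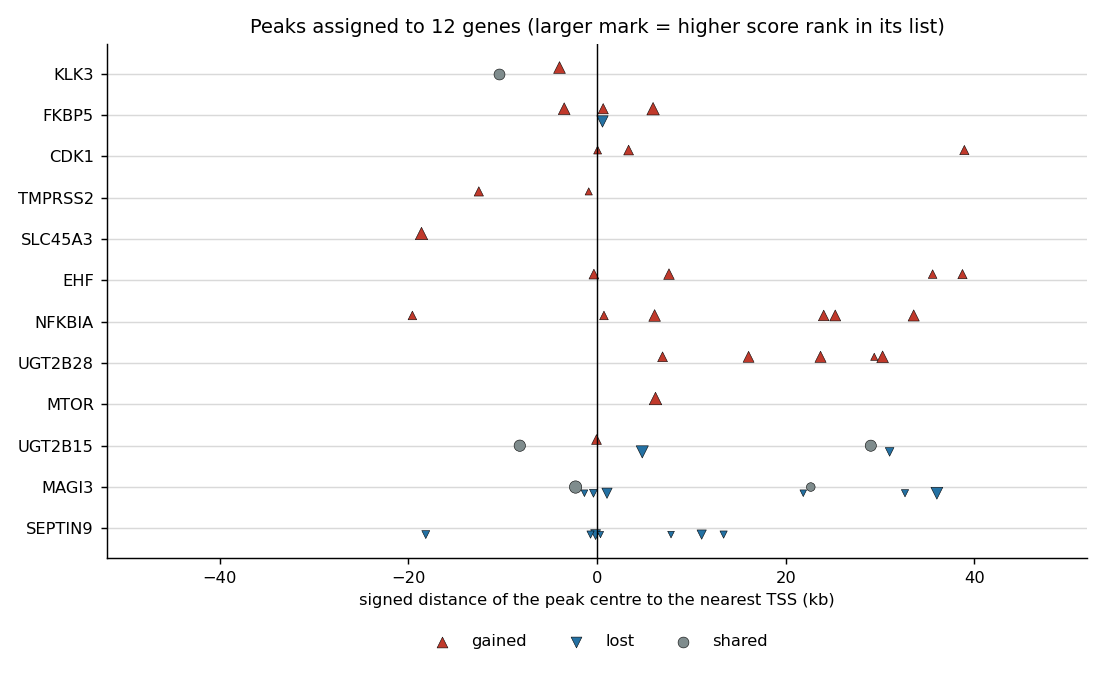
Gained (red, upward), lost (blue, downward) and shared peaks (grey circles) assigned to 12 genes, by the signed distance of the peak centre to the nearest annotated TSS in kb (negative is upstream); larger marks rank higher by score in their own list. NFKBIA, EHF and UGT2B28 carry gained peaks alone and SEPTIN9 carries 7 lost peaks alone, while FKBP5 carries 3 gained and 1 lost peak.

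The strongest promoter peaks of each direction were similar in the other hairpin. The 10 highest-scoring gained promoter peaks lay at GNAL (352), DCAF1, a ubiquitin ligase substrate receptor gene (352), COX16 (226), ARHGEF5 (191), TXNIP (179), SMN2 (179), GMFB (168), the Wnt receptor gene FZD9 (157), SPRYD4 (146) and the N-terminal acetyltransferase subunit gene NAA25 (146). All 10 were present in shFoxA1 R1881 and 9 also in shFoxA1 EtOH. SMN2 has a near-identical copy, SMN1, so its peak is uncertain. The 10 highest-scoring lost promoter peaks lay at the aminopeptidase gene NPEPPS (215), the mRNA decapping gene DCP1B, the deubiquitinase gene USP5 and the cytochrome oxidase assembly gene COX19 (203 each), ATF4 and GRPEL2 (169 each), USP30 and GTF3C5 (136 each), and C1orf159 and GPATCH2 (125 each). Of these, too, 10 were present in shFoxA1 R1881 and 9 in shFoxA1 EtOH. Presence in the FoxA1-hairpin libraries thus did not separate these gained from these lost promoter peaks.

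The strongest non-repeat peaks at any position differed in this respect. Of the 10 highest-scoring gained ones, 9 were present in shFoxA1 R1881 and absent from shFoxA1 EtOH, DCAF1 being the exception. Beside the peaks at MYL10, CEP120, TACC2 and ADAM2, they lay at C5orf46 (393, at -5181 bp), in intron 7 of 14 of the lipase gene ABHD2 (352; chromosome 15, 89129594 to 89130182), in the GNAL promoter, in intron 1 of 36 of CARMIL1, a regulator of actin capping (326; chromosome 6, 25283849 to 25284644), and at the end of MORN3 (313). Of the 10 highest-scoring lost ones, 9 recurred in the shFoxA1 EtOH list and 8 in the R1881 list of that hairpin, 0 of them in the latter alone. They included SGPP1, a sphingosine phosphate phosphatase gene (180, at -7986 bp), intron 1 of the zinc-finger gene ZNF441 (180) and intron 1 of 7 of the taste G protein gene GNAT3 (180).

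The shared peaks had their own leaders. The 10 strongest shared non-repeat peaks at coding genes, ranked in the R1881 list, lay at ARHGEF18 (6603), NPAS4 (5457), KCTD2 (2642), ZNF268 (2603), ZNF84 (2254), SIGLEC16 (2140), ZNF77 (1934), ZNF557 (1767), ZNF763 (1694) and ZNF180 (1622), and all 10 were in both FoxA1-hairpin lists. The 6 at ZNF genes covered the last annotated exon, which in such genes encodes the array of zinc fingers. ZNF genes took 191 of the 443 shared exon peaks, or 43.1% (38.6 to 47.8), against 23 of 167 gained ones (13.8%, 9.36 to 19.8) and 13 of 187 lost ones (6.95%). The last exons of ZNF genes resemble each other, and mapping to them was not assessed. Peaks over tRNA genes were also mostly shared, with 49 shared, 9 gained and 1 lost.

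The promoter windows were finally searched for motifs, each on both strands. RefSeq sequences of 250 bases before to 50 bases after the start were at hand for 15843 coding genes. Of these, 528 had a gained, 705 a lost and 1081 a shared promoter peak. The E-box CACGTG, the site of MYC and related factors, occurred in 10.2% of the windows with a gained peak (7.92 to 13.1), in 13.3% with a lost peak (11.0 to 16.0) and in 13.1% with a shared peak (11.3 to 15.3), against 8.88% of all windows. The ETS motif CCGGAAGT occurred in 9.47%, 9.50% and 9.16%, against 6.19% of all. The hexamer AGAACA occurred in 8.52%, 7.23% and 7.31%, against 11.2% of all. The forkhead motif TGTTTAC occurred in 2.46%, 2.70% and 1.39%, against 2.61%. No window held an exact match to the full androgen response element, an inverted repeat of that hexamer with a short spacer, and imperfect copies of it were not searched for. The CTCF core was in 2 of all windows and in none of the 3 groups. Windows with a peak were richer in G and C, with medians of 65.7% for gained, 67.7% for lost and 67.0% for shared peaks against 62.7% over all, and the part of base composition in these shares was not tested. The sequences of the intronic and intergenic peaks were not analysed here.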

How the data were processed

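The 4 annotated peak lists of mTOR chromatin immunoprecipitation were used, 1 library per group; the 4 inputs were not used. The submitters' processing notes name MACS2, HOMER 4.11.1, BWA 0.7.12, Trimmomatic 0.36, deepTools 3.5.0, Picard 2.0.1 and build hg38, without role or order. Per the file headers, the authors' lists are HOMER peak annotations with a score per peak, whose definition no header or label records; it only ranks peaks within a list. The deposited GC fraction of a peak is printed as a percentage. Signed distances to the TSS, classes and nearest genes were taken as deposited. No read totals were used, so depth is unknown and a longer list may come from a deeper library.

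Peaks on chromosomes 1 to 22, X and Y were intersected with a minimum overlap of 1 bp (python 3.11.15, pandas 2.3.3, numpy 2.4.6), after a test of the intersection on simulated data. Shares carry Wilson 95% intervals. Genes were matched by identifier to RefSeq (GRCh38.p14). The comparison, its members and the 12 gene lists were chosen with earlier results of these data known. Named genes are list members with changed peaks by score, the 10 genes with the most gained or lost peaks, the 10 highest-scoring promoter, non-repeat and shared peaks, and fixed genes, among them KLK3, KLK2, TMPRSS2, FKBP5, UGT2B15, UGT2B17 and MTOR; some genes that the rule names are counted in their lists but not reported here by name, and others are said to be chosen after their values were seen. Alternatives changed the overlap rule, the score threshold, the repeats and the gene window.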

Additional observations from a re-analysis of the deposited data

Results flagged for a closer look

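Some balances of gained and lost peaks had opposite signs in the empty-vector and FoxA1-hairpin pairs, each from 1 library per side, and none of these differences was tested. Gained minus lost peaks of the mTOR pathway list were -6 with the empty vector and 1 with the FoxA1 hairpin. Neuroendocrine markers stood at -1 and 2, and genes of unrelated tissues at 1 and -1. Among repeats, young L1 elements (L1PA2 to L1PA8 and L1HS) had -63 with the empty vector and 1038 with the FoxA1 hairpin, while other L1 elements had 14 and -148. The long terminal repeat MER11A had 6 and -14, and the internal part of the THE1B retrovirus (THE1B-int) had -25 and 5.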

How the results depend on the processing

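Requiring an overlap of 50% of the shorter peak, or counting gaps of up to 500 bp as shared, changed no main result. When each list was limited to its 10000 strongest peaks, 3537 peaks were gained and 3532 lost (50.04% gained), and with changed peaks restricted to scores above their list's median 3393 and 2610 (56.5%). With peaks in repeats left out of both lists the numbers were 4565 and 3741 (55.0%). Gained minus lost, in percentage points, went for introns from 3.97 to 5.81 without repeats. For promoters it went from -2.16 to -3.32 (10000 peaks), -3.01 (above the median) and -8.31 (without repeats). No promoter peak was annotated to a repeat, so leaving repeats out removed peaks of other classes only. Overlaps were then called again, so a non-repeat peak that had overlapped only repeat peaks now counted as gained or lost. Both sets thus exceed the 4177 gained and 3384 lost non-repeat peaks of the main comparison. The promoter share of both sets rose. For the share outside repeats gained minus lost went from 3.74 to 5.99 (10000 peaks) and 11.1 (above the median). For intergenic sequence it turned to 4.10 without repeats. In the sets called again without repeats the median distances were 13101 bp for gained and 3713 bp for lost peaks. For the non-repeat peaks of the main comparison they were 11684 and 2090.5 bp. Of gained peaks in exactly 1 FoxA1-hairpin list, 73.9% were in its R1881 list, and 82.7% (10000 peaks), 83.9% (above the median) or 77.5% (without repeats); for lost peaks 39.9% became 32.8% under the first and 32.8% under the second.

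The net of the androgen-induced list, 29, became 12 (10000 peaks), 13 (above the median), 18 (without repeats), 12 (window of 10 kb) and 45 (no window). That of the androgen-repressed list, -2, became 3, 1 and 0 in the first 3 of these and -1 with no window. Signs also turned for luminal factors (-2 above the median), the mTOR pathway (1 with 10000 peaks and 1 above the median), glycolysis (-2 without repeats, -3 at 10 kb), polyamine and secretory genes (-1 with 50% overlap, -1 with 10000 peaks, -2 without repeats, -1 at 10 kb) and unrelated tissues (-1 without repeats). The cause was not tested, beyond the smaller numbers of peaks. No paired analysis was possible because each group is 1 library. The wider motif window was not run, as the sequences under the peaks were not used here.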

Other observations

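The balance of gained and lost peaks also varied by chromosome. Over the autosomes the gained share of changed peaks ran from 49.4% on chromosome 5 (46.9 to 51.9) to 58.3% on chromosome 22 (52.5 to 63.8), with 57.1% on chromosome 16. Chromosome X had 109 gained and 143 lost peaks, or 43.3% (37.3 to 49.4), and Y had 12 and 24, or 33.3% (20.2 to 49.7). Chromosome 19 had the lowest share of gained peaks among the R1881 peaks of an autosome, 36.9%, and 789 shared peaks. Within L2 elements, the L2c, L2b and L2a subfamilies had 80 gained and 26 lost, 82 and 39, and 151 and 84 peaks, and in the FoxA1-hairpin pair their gained shares were 73.1%, 80.5% and 69.1%. The nearest gene was protein-coding for 69.5% of gained, 68.7% of lost and 67.2% of shared peaks, and a pseudogene for 4.15%, 4.57% and 7.07%.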
